A study of Mus musculus with 5 samples.

Results

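The genes described here encode the proteins that make microRNAs and carry out their silencing. They are 10 genes, chosen by their function, of 54838 genes listed per library, and all 10 were measured. Drosha and Dgcr8 encode the Microprocessor, Dicer1 the second nuclease of the pathway, Ago1, Ago2 and Ago3 the Argonaute proteins that hold the microRNA, Tnrc6a and Tnrc6b the GW182 proteins that Argonautes recruit, and Lin28a and Lin28b the RNA-binding proteins that block let-7 maturation. The cells were N2a, an established mouse neuroblastoma line. They were transfected with an siRNA against Ewsr1 (siEwsr1, n = 3 libraries) or with a control siRNA (siCtrl, n = 2 libraries), in repeated pulses with the lipid reagent Lipofectamine RNAiMAX, with collection 24 hours after the final one. Both groups therefore received siRNA and lipid, and no untransfected library was analysed here. Total RNA depleted of ribosomal RNA was sequenced. The labels name 1 cell line and no separate cultures, so the spread that p-values measure here may be technical.

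A microRNA starts as a hairpin in a longer transcript. Drosha and its partner Dgcr8 cut the hairpin out in the nucleus, Xpo5 exports it, and Dicer removes the loop. One strand of the resulting duplex is loaded into an Argonaute, which finds target messages by pairing with the seed, bases 2 to 8 of the microRNA, and a GW182 protein bound to the Argonaute brings in the deadenylases and decapping enzymes that destroy the message. A transfected siRNA is loaded into the same Argonautes. Lin28a and Lin28b bind the loop of let-7 precursors, through a GGAG motif among other contacts, and prevent their processing, while mature let-7 in turn represses Lin28a and Lin28b through sites in their 3′ UTRs. Ewsr1 encodes an RNA-binding protein of the family that includes Taf15, which associates with the Microprocessor.

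The sequences below show that mutual pair, because Lin28a is 1 of the 2 genes called here and the fold change of Lin28b had the opposite sign. They are RefSeq and GENCODE M21 sequences on GRCm38, printed 5′ to 3′. In the mature microRNA the capitals mark the seed, which 10 of the 11 named let-7 and miR-98 sequences share as GAGGUAG. In the precursor, given on the plus strand of chr9:106178840-106178927, they mark the GGAG between the arms, found in 9 of 12 let-7 family hairpins. In the 3′ UTR windows, on the minus strand, they mark CTACCTC, the reverse complement of the seed.
mmu-let-7g-5p: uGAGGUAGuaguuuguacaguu
Mirlet7g hairpin: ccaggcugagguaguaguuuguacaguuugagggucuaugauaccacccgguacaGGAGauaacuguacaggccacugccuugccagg
Lin28a site 1, chr4:134005179-134005208: cagcctgttgaaCTACCTCatttttgccga
Lin28a site 2, chr4:134004541-134004570: atcgccacaaacCTACCTCactgtgttgaa
Lin28b site 1, chr10:45381012-45381041: cgggcgggaagtCTACCTCatgcaagcaca
Lin28b site 2, chr10:45378638-45378667: acttgttagtaaCTACCTCtgagtttgaca
Lin28b site 3, chr10:45378466-45378495: tacagcacatggCTACCTCccagctaccac
Lin28b site 4, chr10:45377050-45377079: tgatggcaccgaCTACCTCttcaatcactt

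Levels are in RPKM, which scales reads by the exonic length of the gene and the depth of the library, and fold changes are siEwsr1 over siCtrl on the log2(RPKM + 0.1) scale. The siEwsr1 libraries held 15045774 to 21339459 counted reads and the siCtrl libraries 15766280 to 17314511, and the 10 genes had 400 to 4739 reads per library. Ewsr1 stood at 35.7, 36.3 and 37.6 RPKM in the siEwsr1 libraries, against 71.7 and 72.3 RPKM in the siCtrl libraries, a log2 fold change of -0.96 (SE 0.08, limma adjusted p = 0.000882). Without siCtrl library 2 the adjusted p for Ewsr1 was 0.0579 in limma. The siEwsr1 library 3 stood apart from the other siEwsr1 libraries: on the first principal component it lay at -0.31, against 16.5 and 34.1 for siEwsr1 libraries 1 and 2 and -21.4 and -28.8 for the siCtrl libraries. Among the neuroblastoma markers Isl1, Mycn and Chgb rose, with log2 fold changes of 0.84, 0.46 and 0.45 and limma adjusted p of 0.00426, 0.0380 and 0.0143. Fibroblast and mural cell markers summed to 1.16 to 1.37 RPKM in siEwsr1 and 3.23 to 3.44 RPKM in siCtrl. Acta2 made up most of that sum, at 0.78 to 0.92 RPKM in siEwsr1 and 2.6 to 2.9 RPKM in siCtrl. It was the member of that list that fell, and Col3a1 and Lum were at 0. The part of these shifts in the results below was not tested. In bulk RNA, fewer cells of a type and less RNA per cell cannot be told apart.

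Of the 10 genes, Lin28a rose and Tnrc6a fell after siEwsr1, and the other 8 did not pass the test. Passing means a limma p below 0.05 after Benjamini-Hochberg adjustment over all 14964 genes tested, which 5.11% of them did (2.45% higher and 2.66% lower). In 6 of the 10 genes the libraries of the groups did not overlap, 2 higher (Dgcr8 and Lin28a) and 4 lower (Dicer1, Ago3, Tnrc6a and Lin28b) in siEwsr1. Over all genes tested that share was 39.9%, with 18.6% higher and 21.3% lower. The median log2 fold change of the 10 genes was -0.05, against -0.01 over all genes tested.

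**Figure D1:**
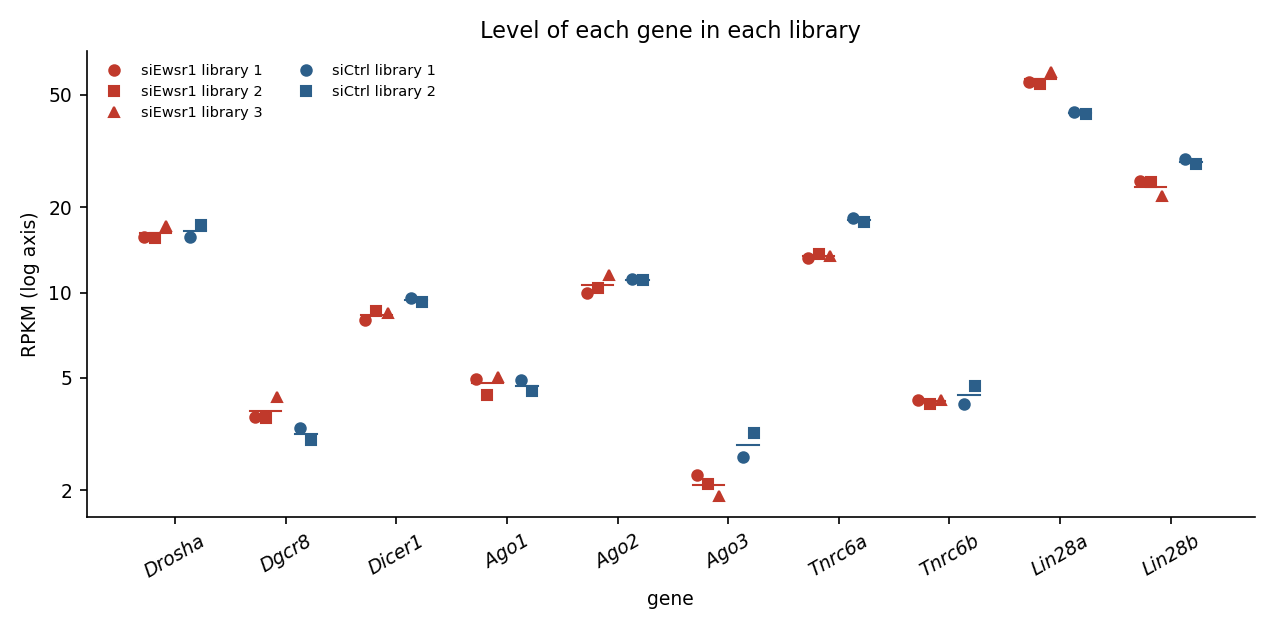
Level of each of the 10 genes in RPKM (log axis) in the 3 siEwsr1 libraries (red) and the 2 siCtrl libraries (blue), with a line at each group mean. Lin28a lies at 54.7 to 60.2 RPKM in siEwsr1 and 42.7 to 43.3 RPKM in siCtrl, and Tnrc6a at 13.2 to 13.7 RPKM in siEwsr1 and 17.7 to 18.4 RPKM in siCtrl.

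**Figure D2:**
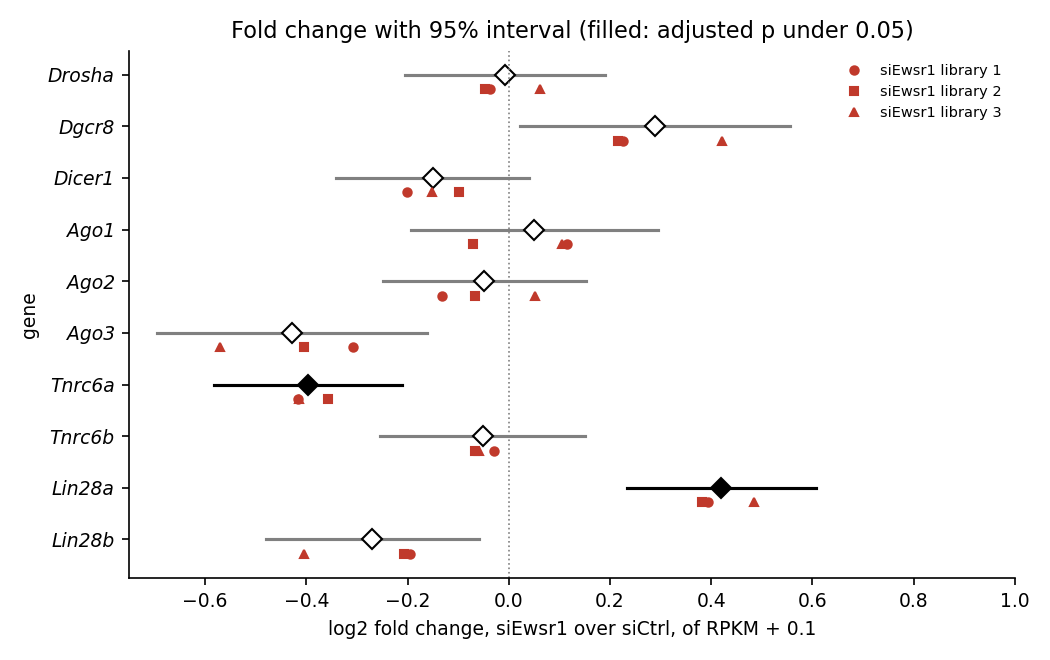
Log2 fold change of each gene, siEwsr1 over siCtrl, with its 95% confidence interval from limma; filled diamonds mark an adjusted p under 0.05, and red points give each siEwsr1 library minus the siCtrl mean. Lin28a at 0.42 and Tnrc6a at -0.40 are the filled diamonds, and the interval of Drosha runs from -0.21 to 0.19.

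The Microprocessor nuclease gene Drosha did not differ between the groups beyond the spread of the libraries. An earlier study of mouse cells lacking Ewsr1 had reported more Drosha, which gives this gene its place in the comparison. Here the Ewsr1 message was not absent, with means that differed by -49.3%, the cells were N2a, and only RNA was analysed. The values below are therefore no repeat of that study. Drosha (ENSMUSG00000022191, chr15:12824815-12935291, plus strand) had 15.8, 15.6 and 17.2 RPKM in siEwsr1 and 15.8 and 17.3 RPKM in siCtrl. The groups overlapped, and the range within siCtrl was nearly as wide as that within siEwsr1. Its log2 fold change was -0.01 (95% interval -0.21 to 0.19, limma adjusted p = 0.974). With 1 library left out in turn the fold change of Drosha lay between -0.06 and 0.04.

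Dgcr8, the double-stranded RNA-binding partner that positions Drosha on the hairpin, was higher in all siEwsr1 libraries than in both siCtrl libraries but did not pass the test. Dgcr8 (ENSMUSG00000022718, chr16:18253948-18289246, minus strand) had 3.63, 3.59 and 4.26 RPKM in siEwsr1, against 3.31 and 3.00 RPKM in siCtrl. The highest siEwsr1 value came from library 3. The log2 fold change was 0.29 (SE 0.12, 95% interval 0.02 to 0.56, limma adjusted p = 0.196). Dgcr8 had 400 to 590 reads per library, against 1407 to 1975 for Drosha, so its counting error was larger.

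The Microprocessor is known to cut hairpins within the Dgcr8 message itself, and 1 such hairpin is annotated as Mir1306. It lies in coding exon 2 of Dgcr8 at chr16:18284239-18284317 on the minus strand, and is shown with its mature arms in capitals because it ties the level of the Dgcr8 message to the activity of its own product.
Mir1306 hairpin: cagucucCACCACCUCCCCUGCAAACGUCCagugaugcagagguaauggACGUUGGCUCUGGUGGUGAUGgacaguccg
Mir1306 was listed at 0 reads in all 5 libraries, and the sources used here do not give how reads shared with the Dgcr8 exon were counted. The exons of Dgcr8 also share 825 bases, 10.7% of their length, with Trmt2a on the opposite strand. Whether counting used strand is likewise not given. Trmt2a had a log2 fold change of -0.07 (limma adjusted p = 0.803), opposite in sign to Dgcr8.

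Dicer1 was lower in every siEwsr1 library than in the siCtrl libraries by a small amount that did not pass the test. Dicer1 (ENSMUSG00000041415, chr12:104687742-104751952, minus strand) had 8.01, 8.59 and 8.47 RPKM in siEwsr1 and 9.58 and 9.28 RPKM in siCtrl. The lowest siCtrl value exceeded the highest siEwsr1 value. The log2 fold change was -0.15 (95% interval -0.34 to 0.04, limma adjusted p = 0.335), and the means differed by -11.4%.

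Among the Argonautes, Ago1 and Ago2 overlapped between the groups and Ago3 was lower in siEwsr1 without passing the test. Ago2, the Argonaute that can cut a fully paired target as in siRNA silencing, had 9.93, 10.4 and 11.5 RPKM in siEwsr1 and 11.2 and 11.1 RPKM in siCtrl. The siEwsr1 values of Ago2 lay on both sides of the siCtrl values, with a log2 fold change of -0.05 (95% interval -0.25 to 0.15, limma adjusted p = 0.799). Ago1, which is adjacent to Ago3 on chromosome 4 and on the same strand, had 4.97, 4.35 and 5.05 RPKM in siEwsr1 and 4.90 and 4.47 RPKM in siCtrl. The log2 fold change of Ago1 was 0.05 (95% interval -0.19 to 0.29, limma adjusted p = 0.833).

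Ago3 (ENSMUSG00000028842, chr4:126331704-126429556, minus strand) had 2.26, 2.10 and 1.91 RPKM in siEwsr1, against 2.61 and 3.19 RPKM in siCtrl. The groups did not overlap, but between the siCtrl libraries Ago3 differed by 0.24 on the log2 scale, more than for any other of the 10 genes. The log2 fold change was -0.43 (SE 0.12, 95% interval -0.70 to -0.16, limma adjusted p = 0.0710). Without siEwsr1 library 3 Ago3 fell, with a log2 fold change of -0.36 and a limma adjusted p of 0.0124, in a fit that called 25.9% of all genes. Ago4, the remaining Argonaute, was barely present, at 0.20, 0.38 and 0.50 RPKM in siEwsr1 and 0.22 and 0.10 RPKM in siCtrl. These Ago4 values overlapped (log2 fold change 0.82, SE 0.36, limma adjusted p = 0.210).

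Of the GW182 genes, Tnrc6a fell and Tnrc6b did not pass the test. GW182 proteins bind Argonaute through glycine-tryptophan repeats and hand the target to the CCR4-NOT and PAN2-PAN3 deadenylases. Tnrc6a (ENSMUSG00000052707, chr7:123123885-123195296, plus strand) had 13.2, 13.7 and 13.5 RPKM in siEwsr1, against 18.4 and 17.7 RPKM in siCtrl. The means were 13.5 ± 0.263 RPKM in siEwsr1 (SD, n = 3) and 18.1 ± 0.471 RPKM in siCtrl (SD, n = 2), a difference of -25.3%. The groups were far apart relative to the spread within each. The log2 fold change was -0.40 (SE 0.08, 95% interval -0.58 to -0.21, limma adjusted p = 0.0277), with -0.42, -0.36 and -0.41 in siEwsr1 libraries 1, 2 and 3 against the siCtrl mean.

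The call of Tnrc6a depended on which library was left out and on the variance trend used in limma, while its log2 fold change lay between -0.44 and -0.36 with any 1 library left out. Its limma adjusted p was 0.301 without siCtrl library 1, 0.268 without siCtrl library 2 and 0.167 without siEwsr1 library 1, with log2 fold changes of -0.36, -0.44 and -0.38. It stayed called without siEwsr1 library 2 (limma adjusted p = 0.0390) and without siEwsr1 library 3 (limma adjusted p = 0.000379). With limma's default variance trend, on mean log2 RPKM in place of mean read level, the limma adjusted p was 0.0734. Tnrc6b had 4.16, 4.04 and 4.16 RPKM in siEwsr1 and 4.03 and 4.68 RPKM in siCtrl. The siEwsr1 values of Tnrc6b lay between the siCtrl values, with a log2 fold change of -0.05 (95% interval -0.25 to 0.15, limma adjusted p = 0.788). The third paralog, Tnrc6c, had 4.65, 4.37 and 5.71 RPKM in siEwsr1 and 4.92 and 5.40 RPKM in siCtrl (log2 fold change -0.06, limma adjusted p = 0.819).

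The Lin28 paralogs differed in direction: Lin28a rose, and Lin28b was lower in each siEwsr1 library but did not pass the test. Lin28a (ENSMUSG00000050966, chr4:134003330-134018841, minus strand), an RNA-binding protein of stem and progenitor cells, had 55.3, 54.7 and 60.2 RPKM in siEwsr1, against 43.3 and 42.7 RPKM in siCtrl. The means were 56.8 ± 3.02 RPKM in siEwsr1 (SD, n = 3) and 43.0 ± 0.450 RPKM in siCtrl (SD, n = 2), a difference of 32%. The lowest siEwsr1 library lay well above both siCtrl libraries. The log2 fold change was 0.42 (SE 0.08, 95% interval 0.23 to 0.61, limma adjusted p = 0.0226). Lin28a was higher than the siCtrl mean by 0.39, 0.38 and 0.49 on the log2 scale in siEwsr1 libraries 1, 2 and 3.

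As for Tnrc6a, the call of Lin28a depended on which library was left out. Its limma adjusted p was 0.222 without siCtrl library 1, 0.340 without siCtrl library 2 and 0.130 without siEwsr1 library 1, while its log2 fold change stayed between 0.38 and 0.44 with any 1 library left out. It stayed called without siEwsr1 library 2 (limma adjusted p = 0.0322) and without siEwsr1 library 3 (limma adjusted p = 0.000368). With limma's default variance trend the adjusted p was 0.0608. Lin28a is also the 1 gene of the 10 with a value not placed at the lowest position that gives whole reads. In siCtrl library 1 the lowest placement that gives whole reads is 4.33 RPKM (273 reads), and the one used is 43.3 RPKM (2730 reads). That placement was chosen because it lies near the values of the other libraries. Its closeness to the 42.7 RPKM of siCtrl library 2 is therefore no separate evidence for it.

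Lin28b (ENSMUSG00000063804, chr10:45376620-45486395, minus strand), which is known to hold back let-7 primary transcripts in the nucleus, had 24.8, 24.5 and 21.9 RPKM in siEwsr1 and 29.6 and 28.4 RPKM in siCtrl. The groups did not overlap, and siEwsr1 library 3 was the lowest. Its log2 fold change was -0.27 (SE 0.09, 95% interval -0.48 to -0.06, limma adjusted p = 0.133). Without siEwsr1 library 3 Lin28b fell, with a log2 fold change of -0.21 and a limma adjusted p of 0.0229. In that fit 4 of the 10 genes were called (Lin28a, Tnrc6a, Ago3 and Lin28b), against 25.9% of all genes tested.

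**Figure D3:**
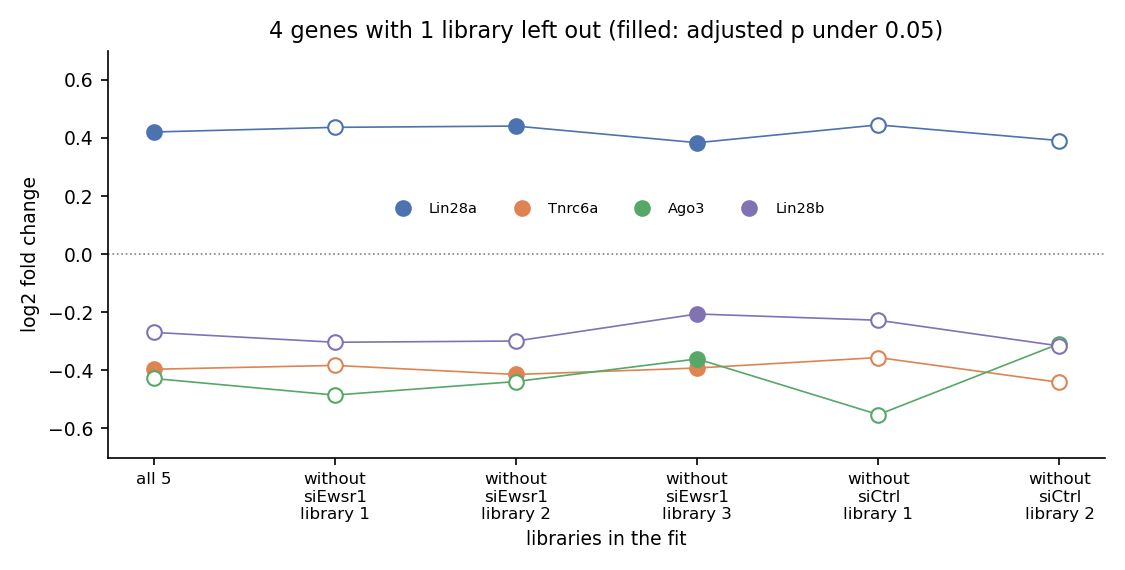
Log2 fold change of 4 genes in the fit of all 5 libraries and in fits with 1 library left out; filled points mark a limma adjusted p under 0.05. The fold changes keep their sign in every fit, at 0.38 to 0.44 for Lin28a and -0.44 to -0.36 for Tnrc6a, while the calls come and go.

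Ranked by RPKM, the 10 genes spanned a wide range, and the Lin28 genes led it in both groups. In siEwsr1 the order of mean levels was Lin28a, Lin28b, Drosha, Tnrc6a, Ago2, Dicer1, Ago1, Tnrc6b, Dgcr8 and Ago3, with Lin28a 27.1-fold above Ago3. In siEwsr1 Tnrc6a (13.5 RPKM) stood below Drosha (16.2 RPKM), whereas in siCtrl Tnrc6a (18.1 RPKM) stood above Drosha (16.5 RPKM), and the rest of the order was the same. Neighbours whose library ranges overlapped were Tnrc6b and Dgcr8 in siEwsr1, and Ago1 with Tnrc6b and Dgcr8 with Ago3 in siCtrl. The message of Drosha was 4.05 to 5.76 times as abundant per length as that of its partner Dgcr8 in every library.

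Within families, Lin28a held a larger share of Lin28 and Tnrc6a a smaller share of GW182 in every siEwsr1 library than in the siCtrl libraries. Lin28a made up 70.5% ± 2.47 of the summed Lin28 RPKM in siEwsr1 (SD, n = 3) and 59.7% ± 0.409 in siCtrl (SD, n = 2). The summed Lin28 level was 80.5 ± 1.48 RPKM in siEwsr1 and 72 ± 1.25 RPKM in siCtrl (SD). Tnrc6a made up 59.9% ± 2.09 of GW182 RPKM in siEwsr1 and 65.5% ± 2.49 in siCtrl, and the GW182 sum was 22.5 ± 0.763 RPKM in siEwsr1 and 27.6 ± 0.327 RPKM in siCtrl. The Argonaute sum was 17.9 ± 0.996 RPKM in siEwsr1 and 18.9 ± 0.0765 RPKM in siCtrl, of which Ago2 held 59.4% in siEwsr1 and 59.0% in siCtrl.

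**Figure D4:**
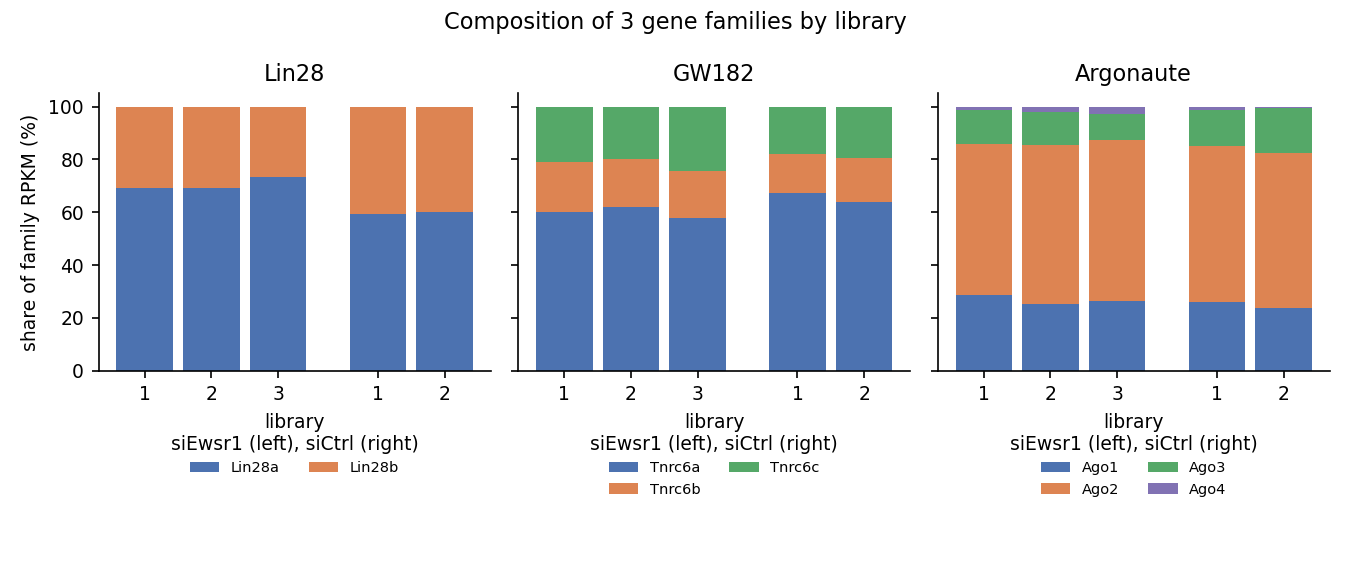
Share of each paralog in the summed RPKM of its family, per library, with siEwsr1 libraries at the left and siCtrl libraries at the right of each panel. Lin28a takes 69.1% to 73.4% of Lin28 in siEwsr1 and 59.4% to 60.0% in siCtrl.

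A ratio of 2 genes within a library does not depend on the library total. The 4 ratios given here, chosen after the values were seen, were compared by an exact two-sided permutation test over libraries, which with 3 against 2 libraries cannot give a p below 0.1. The ratio of Lin28a to Lin28b was 2.23, 2.23 and 2.75 in siEwsr1 and 1.47 and 1.5 in siCtrl (exact permutation p = 0.1, adjusted over the 4 ratios 0.133). No siEwsr1 library came near the siCtrl ratios. The ratio of Tnrc6a to Tnrc6b was 3.17, 3.40 and 3.25 in siEwsr1 and 4.56 and 3.79 in siCtrl (exact permutation p = 0.1, adjusted 0.133), and the siCtrl libraries differed more from each other than the siEwsr1 libraries did. The ratio of Dgcr8 to Drosha was 0.230, 0.230 and 0.247 in siEwsr1 and 0.210 and 0.174 in siCtrl (exact permutation p = 0.1, adjusted 0.133). The ratio of Ago3 to Ago2 was 0.228, 0.203 and 0.166 in siEwsr1 and 0.234 and 0.288 in siCtrl (exact permutation p = 0.2, adjusted 0.2).

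Around the 10 genes, other genes of the pathway were called at a share near that over all genes. Of 127 tested genes in 7 functional lists, the 10 left out, 7 rose and 1 fell (6.30%, against 5.11% of all genes), with a median log2 fold change of 0.04. None of the 8 was called without siCtrl library 1, siCtrl library 2 or siEwsr1 library 1, and 41 genes were called without siEwsr1 library 3. The fit without siEwsr1 library 3 also called 25.9% of all genes tested. With limma's default variance trend 1 gene, Stip1, was called.

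Of the 16 Microprocessor cofactors tested, Ddx17 fell (6.25%, against 5.11% of all genes), none rose, and the median was 0.17. Ddx17, an RNA helicase that joins the Microprocessor together with Ddx5, had 26.1, 28 and 29.3 RPKM in siEwsr1 and 38.6 and 39.7 RPKM in siCtrl (log2 fold change -0.47, SE 0.09, limma adjusted p = 0.0143). Hnrnpa1, the most abundant of the list and a protein that binds the loop of certain primary microRNAs, had a log2 fold change of 0.34 (limma adjusted p = 0.0634) and non-overlapping groups. Of the 12 genes of export, Dicer partners and the chaperones that load Argonaute, Stip1 rose (8.33%), none fell, and the median was 0.12. Stip1 encodes a co-chaperone that links Hsp70 and Hsp90, and had 196, 191 and 184 RPKM in siEwsr1 and 140 and 132 RPKM in siCtrl (log2 fold change 0.51, SE 0.09, limma adjusted p = 0.0112). Its partner Hsp90ab1, the most abundant of the list, had a log2 fold change of 0.16, and Fkbp4, another co-chaperone, one of -0.14 (limma adjusted p = 0.334 and 0.452). None of the 13 genes of precursor tailing and microRNA decay passed the test (median -0.09). The extremes there were Tent2, a poly(A) polymerase, at 0.41 (limma adjusted p = 0.0713) and Trim71, a ubiquitin ligase gene and let-7 target, at -0.40 (limma adjusted p = 0.0543), and Xrn2, the most abundant, stood at 0.07 (limma adjusted p = 0.721). Trim71 fell, with a limma adjusted p of 0.0414 to 0.0480, in 4 of the alternative fits that keep all 5 libraries and have no replicate term. In the other fits of that kind that tested Trim71 it was not called, with a limma adjusted p of 0.0535 to 0.180.

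Downstream of GW182, of 31 tested silencing effectors 3 rose (9.68%, against 5.11% of all genes), none fell, and the median was 0.06. Ddx6, the helicase that CCR4-NOT engages to repress translation and promote decapping, had 23.5, 26.7 and 21.4 RPKM in siEwsr1 and 16.4 and 14.7 RPKM in siCtrl (log2 fold change 0.63, SE 0.11, limma adjusted p = 0.0143). Pan3, a subunit of the PAN2-PAN3 deadenylase, had 7.80, 7.78 and 7.32 RPKM in siEwsr1 and 5.21 and 5.65 RPKM in siCtrl (log2 fold change 0.51, limma adjusted p = 0.0132). Dcp2, the decapping enzyme, had 14.7, 15.4 and 13.8 RPKM in siEwsr1 and 11 and 10.8 RPKM in siCtrl (log2 fold change 0.44, limma adjusted p = 0.0266), and lost its call also without siEwsr1 library 2 (limma adjusted p = 0.0557). All 3 genes had groups that did not overlap, as did 18.6% of all genes tested with siEwsr1 higher. The 3 were already called, so the lack of overlap adds no separate support. Cnot2, a CCR4-NOT subunit and the most abundant of the list, had a log2 fold change of -0.08, and Edc3, a decapping enhancer, was lowest at -0.27 (limma adjusted p = 0.695 and 0.335).

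**Figure D5:**
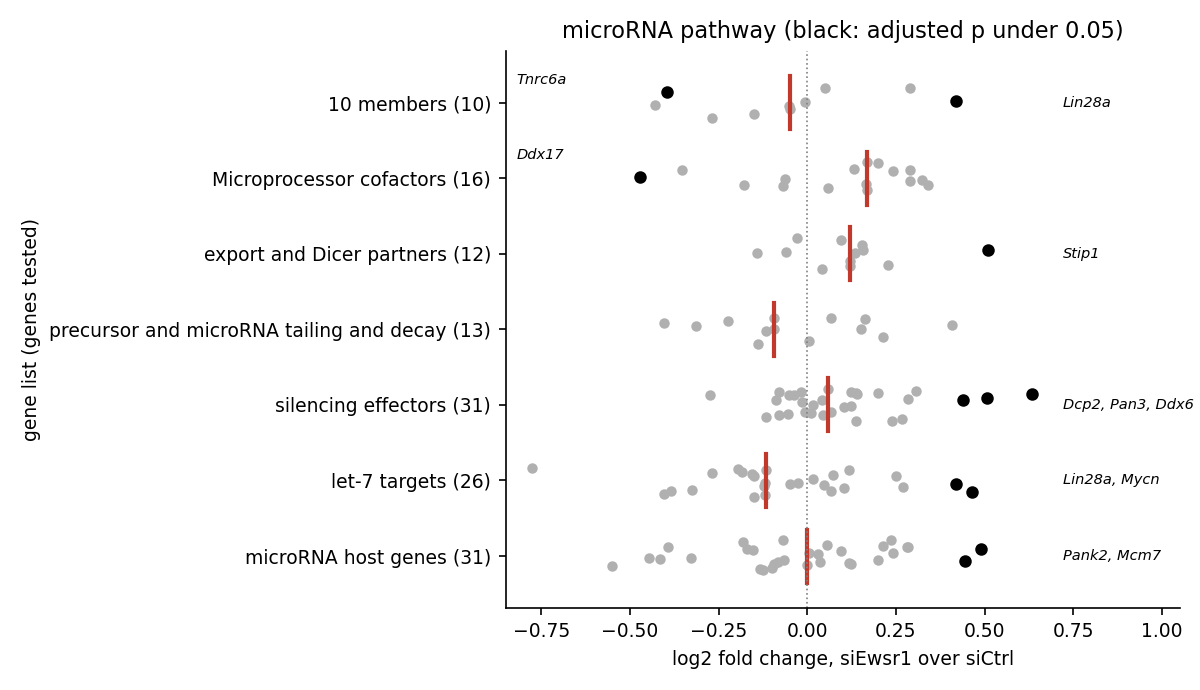
Log2 fold change, siEwsr1 over siCtrl, of each tested gene among the 10 genes and in 6 lists, without the paralogs Ago4 and Tnrc6c, with the number tested in parentheses and a red line at the list median; black points, named at the sides, have a limma adjusted p under 0.05. The medians drawn lie between -0.12 (let-7 targets) and 0.17 (Microprocessor cofactors), and no row holds more than 3 called genes.

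Of the 26 tested messages known as let-7 targets 2 rose (7.69%, against 5.11% of all genes), Lin28a among them, and none fell. Outside the 10 genes, 23 were tested, and of these Mycn alone was called, with 9.88, 9.64 and 11 RPKM in siEwsr1 and 7.33 and 7.57 RPKM in siCtrl (log2 fold change 0.46, limma adjusted p = 0.0380). Mycn, a MYC-family oncogene of neuroblastoma, is also on the list of neuroblastoma markers above. The median of the 26 tested members, Lin28a, Lin28b and Dicer1 included, was -0.12, and the lowest was Igdcc3 at -0.78 (limma adjusted p = 0.3), a gene under 0.3 RPKM. Cdc34, the most abundant of the list in siCtrl, had a log2 fold change of -0.15, and Ccnd1, the most abundant in siEwsr1, one of 0.07 (limma adjusted p = 0.488 and 0.696).

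The let-7 seed match printed above occurs in the annotated 3′ UTR of Lin28b 4 times, Ago2 3 times, Lin28a 2 times and Ago3 1 time, read on the message strand, and in none of the other 6 genes. It is carried by 10.5% of the 11910 tested genes with a 3′ UTR. The carriers had a median log2 fold change of 0.00, with 43 called higher and 41 lower of 1245, against 0.00 for the genes without it. A pair of 7-mers that an earlier scan of these same fold changes had picked were also looked up. TCACTGC, in 13.5% of 3′ UTRs, occurs in those of Ago2 3 times, Tnrc6b 2 times, and Dicer1 and Ago3 1 time each, and GCAATTT, in 7.91%, occurs 1 time in that of Dicer1. Of 1606 carriers of TCACTGC 135 were called higher and 40 lower, against 217 and 307 of the 10304 genes without it. Of 942 carriers of GCAATTT 14 were called higher and 86 lower, against 338 and 261 of the 10968 without it. Because the 7-mers were picked from these fold changes, these counts are no separate evidence. The annotated 3′ UTRs searched for Lin28a and Tnrc6a, the called genes, hold neither 7-mer. Coding sequence and other transcripts were not searched, and what moved these genes was not tested.

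The microRNAs themselves were nearly out of reach, since a total RNA library of this kind does not retain mature microRNAs. Of the 12 let-7 family hairpin genes above, 5 had any read. Mir98 had 11 to 31 reads per library and no other had more than 8. Of 104 tested genes annotated as microRNAs, 1 rose and none fell (0.96%, against 5.11% of all genes). Among transcripts that host a microRNA, 31 were tested and 2 rose (6.45%, near the share over all genes). Mcm7, a replicative helicase subunit gene that hosts the miR-106b cluster, had 59.2, 54.0 and 68.1 RPKM in siEwsr1 and 42.5 and 44.5 RPKM in siCtrl (log2 fold change 0.49, limma adjusted p = 0.0253). Pank2, a pantothenate kinase gene that hosts miR-103, had 8.12, 7.65 and 7.68 RPKM in siEwsr1 and 5.72 and 5.89 RPKM in siCtrl (log2 fold change 0.44, limma adjusted p = 0.0365), and was not called without siEwsr1 library 2 either (limma adjusted p = 0.0582). The median of the host genes was 0.00, from Aatk at -0.55 (limma adjusted p = 0.140) to Mcm7, and Mest, the most abundant, stood at -0.10 (limma adjusted p = 0.590).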

How the data were processed

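Samples were grouped by their titles. The submitters' processing notes name GRCm38, the aligner STAR 2.5.2b, the counter featureCounts 1.5.1, and edgeR without a version. The deposited values carry no unit name and behave as RPKM, but those of 1 or more lost their decimal point before they were deposited, so they are not counts and no count model was used, although one had been planned. The decimal point was restored by requiring that value times exonic length (GENCODE M21) times counted reads be a whole number of reads. Among placements that did so, the choice favoured those at which the libraries lay close together, with a penalty on higher placements. Likeness between libraries is therefore partly built into the values. In 2062 genes a placement above the lowest was used, and for 614 genes the length was solved from the values. Of intact values, 98.5% to 98.6% came out whole within 1e-06 reads, recovered reads summed to within 0.0361% of each total, and group labels were not used. Genes left out for ambiguous placement numbered 57. Restoration and fit were tested on simulated data.

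The test took genes that reached 10 reads, scaled to the median depth, in 2 or more libraries, and was made with limma 3.58.1 (R 4.3.3) on log2(RPKM + 0.1) after trimmed-mean scaling (30% of ratios, 5% of levels), with robust moderation, group as the only term and a variance trend on mean log2(CPM + 0.5). That trend was chosen over limma's default with both results seen, because counting error follows reads. The members and all gene lists were chosen with earlier results of these data known. Genes named from each list were those called, the most abundant in siCtrl (with Ccnd1 added after its values were seen), and those with the highest and lowest fold change. Sequences came from RefSeq and GENCODE on GRCm38. Ratios and figures used Python 3.11.15. Some marker genes are not reported here.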

Additional observations from a re-analysis of the deposited data

How the results depend on the processing

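With 2 siCtrl libraries, single libraries decided the calls. Over all genes 765 were called, against 3 to 3789 with 1 library left out in turn, 367 with a pseudocount of 1, 62 without a filter on low values and 254 with the variance trend on mean log2 RPKM, an alternative added after seeing the data. Of the 10 genes 2 were called, against 0 to 4 with 1 library left out, 0 without a filter, 0 with the trend on mean log2 RPKM and 1 with genes at their lowest decimal position only, where Lin28a was not tested. Of the other genes of the pathway 8 were called, against 0 to 41 with 1 library left out, 3 with a pseudocount of 1, 0 without a filter, 5 at the lowest decimal position and 1 with the trend on mean log2 RPKM. Ewsr1 kept a log2 fold change of -0.97 to -0.94 with 1 library left out. The cause of these changes was not tested, except that a lone siCtrl library is assumed to vary like the siEwsr1 libraries.

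Whether replicate numbers pair the libraries could not be decided. Deviations from the group mean correlated at 0.0261 and -0.125 between same-numbered libraries. With 2 siCtrl libraries those deviations mirror each other, so the correlations cannot show or exclude pairing. With the replicate number as a block, 3085 genes (4 libraries) or 3228 (5 libraries) were called, 33 or 34 of the other pathway genes, and Ago3 passed (limma adjusted p = 0.0176 and 0.0154).

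No gene of the 10 that was called changed direction under any alternative run, which also held stricter filtering, other scalings, voom weights and ordinary moderation. Depth limits Ago4 and the microRNA genes.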
